A study of Mus musculus with 131 samples.

Results

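The regions described here are tiles of 200 bp that were less methylated in hepatocytes lacking Tet2 and Tet3 than in both adult and newborn hepatocytes. They were chosen from whole-genome bisulfite sequencing (WGBS), which reads the methylation of CpG sites throughout the genome. A tile was taken when its level in the double knockout (DKO) library was at least 35 percentage points below the adult wild type (WT) library and at least 35 points below the newborn library. Of 8049849 autosomal tiles with a value in all 3 libraries, 4886 met this rule, which is 0.0607%. They are called member tiles below, and their WGBS levels are given as a description, since these values chose them.

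TET enzymes oxidise 5-methylcytosine to 5-hydroxymethylcytosine (5hmC), a first step in removing methylation from DNA. Most CpG sites of a differentiated mammalian cell are methylated, and the liver loses methylation at many enhancers after birth. Loss of TET activity is therefore usually studied for methylation that is retained, whereas the tiles described here had less of it in the mutant.

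The DKO mice carry floxed alleles of Tet2 and Tet3 and were injected with adeno-associated virus 8 carrying Cre under the Tbg promoter, which is active in hepatocytes. Injection was at 1 day or 3 weeks of age and hepatocytes were taken at 15 weeks. Control mice of the same age, labelled WT, received the same virus at the same times, so in these comparisons the deletion and the origin of the floxed line cannot be told apart. The labels also list 2 RRBS samples of uninjected floxed mice of 15 weeks and 3 of DKO mice injected at 15 weeks, but their columns could not be assigned and they were not analysed here. All mice are labelled C57Bl, and the hepatocytes other than the cultures were purified on Percoll and by removing CD45-positive cells. WGBS has 1 library each of DKO hepatocytes injected at 1 day, of uninjected adult WT hepatocytes of 15 weeks and of newborn WT hepatocytes labelled 1 week, so its differences have no replicate check. Reduced representation bisulfite sequencing (RRBS), which reads CpG-rich fragments, is given as tiles of 100 bp. Its columns used here are 3 controls and 2 DKO mice for each injection time, out of 4 and 5 listed samples, assigned by animal numbers shared with the expression table. It also covers 2 uninjected WT mice of 3 weeks, 2 of 3 listed mice whose insulin receptor gene was deleted in hepatocytes after birth and whose age the labels do not give, 2 of 8 listed hepatocyte cultures labelled 1 week, and 1 sample each of fat of 25 weeks and neutrophils of 36 weeks. In the paper the cultures were started from unsorted liver cells of newborn mice and kept for 2 to 4 weeks. Whether the DKO mouse of the WGBS library is 1 of the RRBS mice is not stated in the sources used here. The DKO histone libraries are labelled 15 weeks and injected at 1 day, and the WT ones 15 weeks without an injection. The labels of the ATAC-Seq and HNF6 libraries of liver give neither age nor injection.

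The WGBS and RRBS tables give no coverage per tile beyond the authors' minima of 15 and 10 CpGs, so the depth behind a single level is unknown. Whole-gene expression could not check the deletion, because it includes the exons outside the floxed part. Tet2 had 2.13, 1.63 and 0.890 FPKM (fragments per kilobase of transcript, scaled to library depth) in the controls injected at 1 day and 4.08, 2.82 and 3.16 FPKM in the DKO mice, a log2 fold change of 0.79 (limma adjusted p = 0.0173). For Tet3 the controls had 2.11, 2.55 and 1.68 FPKM and the DKO mice 2.78, 1.74 and 2.65 FPKM. After injection at 3 weeks Tet2 had 2.56, 2.08 and 2.99 FPKM in the controls and 1.84 and 0.824 FPKM in the DKO mice (log2 fold change -0.63, limma adjusted p = 0.108), and Tet3 had 2.55, 2.89 and 2.44 FPKM against 1.67 and 1.56 FPKM (log2 fold change -0.47, limma adjusted p = 0.0985). Summed hepatocyte markers reached 10928 to 14305 FPKM in the controls injected at 1 day and 11921 to 14653 FPKM in the DKO mice injected at 1 day. The abundant markers Alb and Serpina1a are nevertheless listed at 0 in every library. T and B cell markers stayed at or below 0.164 FPKM in sum. Neutrophil markers summed to 0.0758 to 0.128 FPKM in these controls and to 0.0128 to 1.42 FPKM in these DKO mice. Kupffer cell and macrophage markers summed to 2.94 to 4.89 FPKM in these controls and to 1.25 to 2.35 FPKM in the DKO mice. Endothelial markers summed to 5.42 to 8.33 FPKM in these controls and 3.25 to 5.20 FPKM in the DKO mice, and after injection at 3 weeks to 3.56 to 9.27 FPKM and 10.3 to 21.4 FPKM. The part of these cells in the results was not tested.

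Most member tiles held a single CpG. To show what such tiles are, the 30 bases around the CpG are given for the 3 tiles with 1 CpG and the largest falls in each of the 2 dense runs of members described below. The sequences are from the plus strand of mm9 (NCBIM37), read 5′ to 3′, and the capitals mark the CpG.
chr15:3601001-3601200: aggcattcatcttcCGccagggggcaggtc
chr15:3543001-3543200: aatttttcctaaagCGgacttgaagtggct
chr15:3710201-3710400: caacatctgctgtgCGctttaatgaactct
chr13:66132801-66133000: cagctagagtaatgCGctattcaagctact
chr13:66329201-66329400: tctttgataacaccCGtgatggtaaaagca
chr13:66337601-66337800: tagaagtaaggttcCGgtaggtgtccaaca
The 3 chromosome 15 tiles had WGBS levels of 0% in the DKO library. In the adult library the levels were 100% for chr15:3601001-3601200, 97.0% for chr15:3543001-3543200 and 93.3% for chr15:3710201-3710400. On chromosome 13 the first pair of tiles also had 0% in the DKO library, against 83.3% in the adult, and chr13:66337601-66337800 had 18.2% against 88.9%. Of the 6 tiles, 5 lie in intergenic sequence and chr13:66329201-66329400 lies in a promoter window.

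The tiles above had the largest falls of their runs, and the members just inside the limit had the smallest of all. A contrast between them therefore follows from how they were picked. The latter also held 1 CpG each and had intermediate DKO levels.
chr10:7455201-7455400: ctgttcctcccctaCGttgggacctagccc
chr10:14142601-14142800: gctgtcttatgggaCGgatgctgtcaagca
chr10:81948801-81949000: cacttagccagagaCGtgtagctatattat
The first, in an intron of Katna1, had 55% in DKO, 90% in adult and 95.8% in newborn hepatocytes. The second, in an intron of Gpr126, had 41.7%, 82.1% and 76.7%. The last, intergenic, had 58.3%, 100% and 93.3%. In each the smaller of both falls was 35 points. In the 3 tiles just outside the limit the smaller fall was 34.9952, 34.9902 and 34.9897 points.

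Over all members the mean WGBS level was 38.5% in the DKO library, 81.5% in the adult and 82.0% in the newborn library, and a level of 0% in DKO was found in 102 of them. Members differed from other tiles in the number of CpGs they held. Of the members, 4181 held 1 CpG, 460 held 2, 136 held 3 or 4 and 109 held 5 or more. Tiles with 1 CpG were 85.6% of members and 40.1% of all measured tiles. Per 10000 measured tiles there were 12.9 members among those with 1 CpG, 2.14 with 2 CpGs, 0.740 with 3 or 4, and 0.545 with 5 to 9. The order turned at the CpG-dense end, where tiles with 10 or more CpGs held 5.78 members per 10000. Between the adult and newborn libraries the tile differences had an SD of 14.2 points with 1 CpG and 6.44 points with 10 or more.

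**Figure D1:**
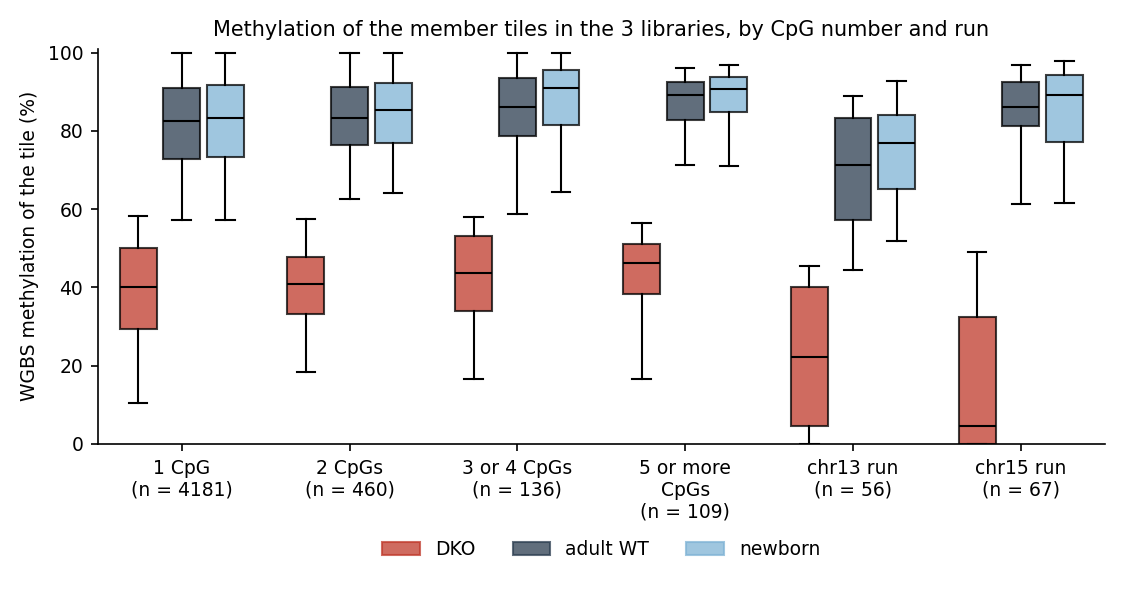
WGBS methylation (%) of the 4886 member tiles in the DKO, adult WT and newborn libraries, by the number of CpGs in the tile and for the runs on chromosomes 13 and 15. Boxes span the quartiles with the median as a line, whiskers reach the 5th and 95th percentiles, and each library is 1 sample; the DKO median is 40% with 1 CpG and 22.3% and 4.55% in the 2 runs.

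The same 35 point rule, applied in the other directions, puts the number of members beside its mirror sets. The adult library alone was low in 92706 tiles and the newborn library alone in 7146. The DKO library alone was high in 20084 tiles, the adult alone in 1567 and the newborn alone in 3859. In the sets high in the adult or newborn alone, 89.9% and 90.4% of tiles held 1 CpG, close to the share of members. In the set low in the adult alone it was 41.8%.

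Members lay outside genes more often than tiles did overall. They were intergenic in 69.2% of cases, against 53.5% of all measured tiles, in gene bodies in 29.4% against 43.0%, and in promoters in 1.45% against 3.48%. A promoter here runs from 1 kb before to 100 bp after a transcript start. The median member had 4 starts of protein-coding genes within 500 kb on either side and lay 55.3 kb from the nearest gene start, against 7 starts and 32.9 kb for all tiles. Tiles low in the adult alone had a median of 10 starts and a distance of 17.8 kb. Tiles high in the adult alone were intergenic in 66.6% of cases, with a median of 5 starts and 43.9 kb, and tiles high in the newborn alone in 71.1%, with 3 starts and 59.0 kb. The mean GC content was 40.2% for members and 43.6% for all tiles. A CA repeat of at least 20 bases was found in 263 members, or 5.38%, against 1.75% of all tiles, 4.02% of those high in the adult alone and 4.38% of those high in the newborn alone.

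Members were mostly isolated. Another member lay within 1 kb for 142 of the 4886, or 2.91%. Of tiles low in the adult alone 59.8% had such a neighbour, and of those low in the newborn alone 20.9%. These sets are larger, with 92706 and 7146 tiles, and tiles of a larger set lie closer together by number alone. In the sets high in the adult or the newborn alone, of 1567 and 3859 tiles, the share was 0.638% and 0.518%, below the members. Linking members at gaps of up to 1 kb left 4744 single tiles, 43 pairs, 10 clusters of 3, 1 of 4, 2 of 5 and 1 of 12. By chromosome the rate ran from 3.81 members per 10000 tiles on chromosome 19 to 8.09 on chromosome 15. Of 2417 windows of 1 Mb, 524 held none, the median was 2 and the 95th percentile 5. Only 3 windows held 20 or more, with 47 and 22 members in neighbouring windows of chromosome 15 and 44 on chromosome 13.

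**Figure D2:**
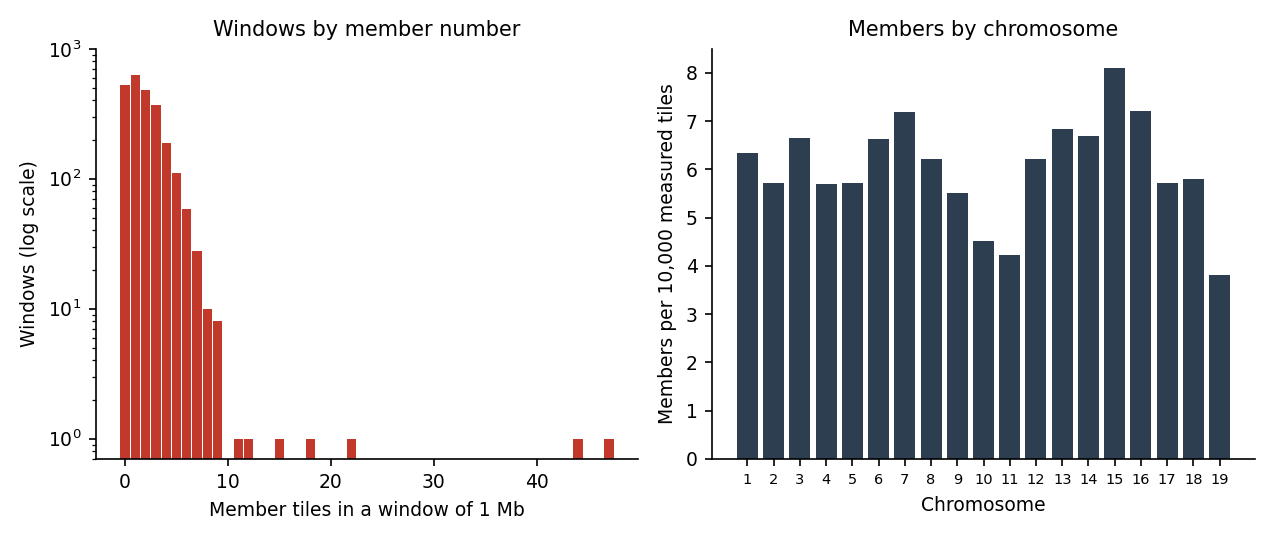
Left, the number of 1 Mb windows (log scale) by the number of member tiles they hold; right, members per 10000 measured tiles for each autosome. The median window held 2 members, and the 3 windows with 22, 44 and 47 members stand apart from the rest.

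These windows belong to 2 runs, found by linking members at gaps of up to 150 kb and keeping runs of at least 20. The chromosome 15 run, chr15:3490201-4426200, held 67 members among 2789 measured tiles, or 2.40%. It spans Ghr, the growth hormone receptor gene, Fbxo4, AW549877, Oxct1, the ketone-body enzyme gene, and Plcxd3. Members there had a median of 4.55% in DKO, 86.2% in adult and 89.3% in newborn hepatocytes, and 28 were at 0% in DKO. The tiles between them had medians of 82.4%, 83.3% and 85.7%, so the low levels sat in scattered tiles and not in the whole stretch. Of its members, the 41 with 1 CpG had a DKO median of 0%, the 22 with 2 CpGs one of 38.2% and the 4 with 3 CpGs one of 35.4%.

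The chromosome 13 run, chr13:65767201-66575400, held 56 members among 1647 tiles, or 3.40%. Its annotated protein-coding genes are Gm17353, Vmn2r-ps100, Gm10324, Gm16512, Gm10772, Vmn2r-ps104 and 2410141K09Rik. The members had medians of 22.3% in DKO, 71.3% in adult and 76.9% in newborn hepatocytes, with 14 at 0% in DKO, and the other tiles had 68.4%, 72.5% and 75.0%. Together the runs held 123 members, 2.52% of all, but 42 of the 102 members at 0% in DKO.

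The chromosome 13 run also lacked values in the DKO library. Of 2493 tiles with adult and newborn values, 846 had no DKO value, or 33.9%. On chromosome 15 the DKO value was missing in 34 of 2823 tiles, or 1.20%. Over all autosomal tiles with adult and newborn values it was missing in 18138 of 8067987, or 0.225%. In RRBS, of 127 tiles of the chromosome 13 run with a value in all 6 injected controls, 51 had none in any of the 4 DKO mice, or 40.2%. Over all RRBS tiles this share was 0.0329%, that is 134 of 407459, and in the chromosome 15 run it was 8.59%, 11 of 128. Both insulin receptor knockout mice lacked a value in 37.0% of these chromosome 13 tiles, against 10.5% of all RRBS tiles. Both WT mice of 3 weeks lacked one in none of the 127. What part the missing values have in the low levels was not tested.

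**Figure D3:**
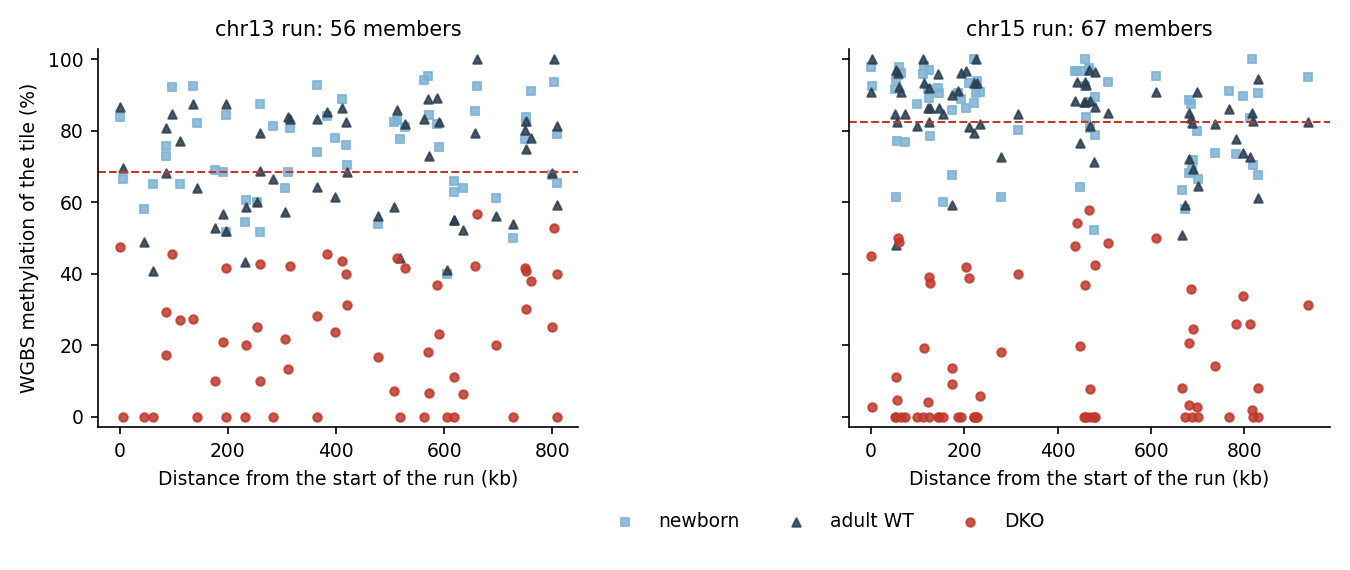
WGBS methylation (%) of the 56 and 67 member tiles of the chromosome 13 and chromosome 15 runs against the distance from the start of the run (kb), for newborn (squares), adult WT (triangles) and DKO (circles). The dashed line is the DKO median of the other tiles in the run, 68.4% and 82.4%, and 14 and 28 members lie at 0% in DKO.

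A separate group of members was CpG-dense and shared sequence. Linking member tiles that share at least 30 stretches of 20 bases gave 1 group of 68 tiles on 14 chromosomes, with 5 to 21 CpGs each and a GC content of 55.9%. These were 68 of the 109 members with 5 or more CpGs, and 54 of the 68 were intergenic. They fell into 31 clusters or single positions, so their tiles are not independent of each other in sequence or in place. The DKO level was between 40% and 60% in 50 of them and below 30% in 10. The sequence is not printed, and no repeat annotation was used here. Another 2 sharing groups were of 585 tiles with a median of 1 CpG on all 19 autosomes and 44 tiles with a median of 2 CpGs.

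The repeated sequence had lower DKO levels beyond the members too. At least 30 of its stretches, which were taken from members, were present in 210 measured tiles on 18 chromosomes. Of these, 49 were members, which the rule itself places below both other libraries. Of the 161 that were not members, 152 had a DKO level below both other libraries. The share of all measured tiles with such a level was not counted. These 161 tiles had WGBS medians of 62.9% in DKO, 87.2% in adult and 90.2% in newborn hepatocytes. Because reads of near-identical copies can be placed at the wrong copy, the level of any single copy is uncertain.

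The 4 clusters with more than 3 members, and the one of the 10 clusters of 3 with the largest mean fall, include 3 that hold this repeated sequence. The largest, chr11:5906401-5909800, held 12 of its 17 measured tiles as members and lies in an intron of Camk2b, which encodes a subunit of a calcium/calmodulin-dependent kinase. Its members averaged 25.2% in DKO, 79.7% in adult and 76.1% in newborn hepatocytes. The cluster chr18:30427001-30428200 held 5 of 6 tiles, outside genes, with means of 15.2%, 69.2% and 70.7%. The cluster chr4:107825801-107826800 held 4 of 5 tiles, outside genes, with 49.6%, 92.2% and 92.4%. The other two lacked the repeated sequence. In Cdk5rap1, a gene of transfer RNA modification, chr2:154179201-154180200 held 5 of 5 tiles with 42.3%, 90.9% and 91.9%. In the non-coding gene Gm2093 of the chromosome 15 run, chr15:3947201-3948800 held 3 of 6 tiles with 12.3%, 89.9% and 96.5%.

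RRBS gave a measurement whose values the rule did not use, but for few members. Whether the WGBS DKO mouse is among the DKO mice injected at 1 day is not stated. The 1 day and pooled results may therefore not come from separate animals. Only 91 of the 4886 members, or 1.86%, had an RRBS value in any of the 10 injected mice, in 123 RRBS tiles. They included 52 of the 109 members with 5 or more CpGs and 32 of the 4641 with 1 or 2. Each mouse was averaged over the member tiles in which it had a value, 94 to 108 RRBS tiles for injection at 1 day. The controls injected at 1 day had 84.0%, 85.3% and 86.8% and the DKO mice 50.4% and 51.96%. The groups did not overlap. The DKO mean of 51.2% ± 1.09 (SD, n = 2) was lower than the control mean of 85.4% ± 1.42 (SD, n = 3), a difference of -34.2 points. A two-sided exact permutation test over these mice gave p = 0.1, the smallest that 10 relabelings allow. After injection at 3 weeks the controls had 77.5%, 82.8% and 78.0% and the DKO mice 46.7% and 51.8%, again without overlap, with a difference of -30.2 points (exact p = 0.1). Permuting within both injection times gave a mean difference of -32.2 points with an exact p of 0.01, the smallest that 100 relabelings allow. Over all RRBS tiles in measured WGBS tiles, the controls of 1 day lay between 61.8% and 62.8% and the DKO mice at 65.4% and 64.9%.

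The lower RRBS level was seen mainly in the CpG-dense members. In members with the repeated sequence the controls of 1 day had 87.7%, 87.0% and 88.1% and the DKO mice 40.4% and 38.4%, a difference of -48.2 points. The difference was -42.2 points after injection at 3 weeks. Tiles with the repeated sequence that were not members had 87.9%, 88.5% and 87.9% in the controls and 61.8% and 56.9% in the DKO mice. In members with 3 or 4 CpGs, over 7 RRBS tiles, the difference was -0.202 points at 1 day and -18.1 points at 3 weeks. In the members with 1 or 2 CpGs the groups overlapped. There the controls had 84.1%, 79.4% and 85.6% and the DKO mice 79.2% and 86.0%, with a difference of -0.371 points at 1 day and -0.564 points at 3 weeks. These subsets were formed after their levels had been seen, so no test is given for them.

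Member by member the same split held. Of all 200 bp tiles with RRBS values in at least 2 mice of each 1 day group, the DKO mean was at least 20 points lower in 1.42%. Among members this was so in 48 of 70, comprising 41 of 41 with the repeated sequence and 7 of 29 without it. Of the members with 1 or 2 CpGs it was so in 2 of 20, and 11 of these 20 had a higher mean in the DKO mice. Their differences ran from -40.3 to 33.3 points with a median of 2.62 points.

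**Figure D4:**
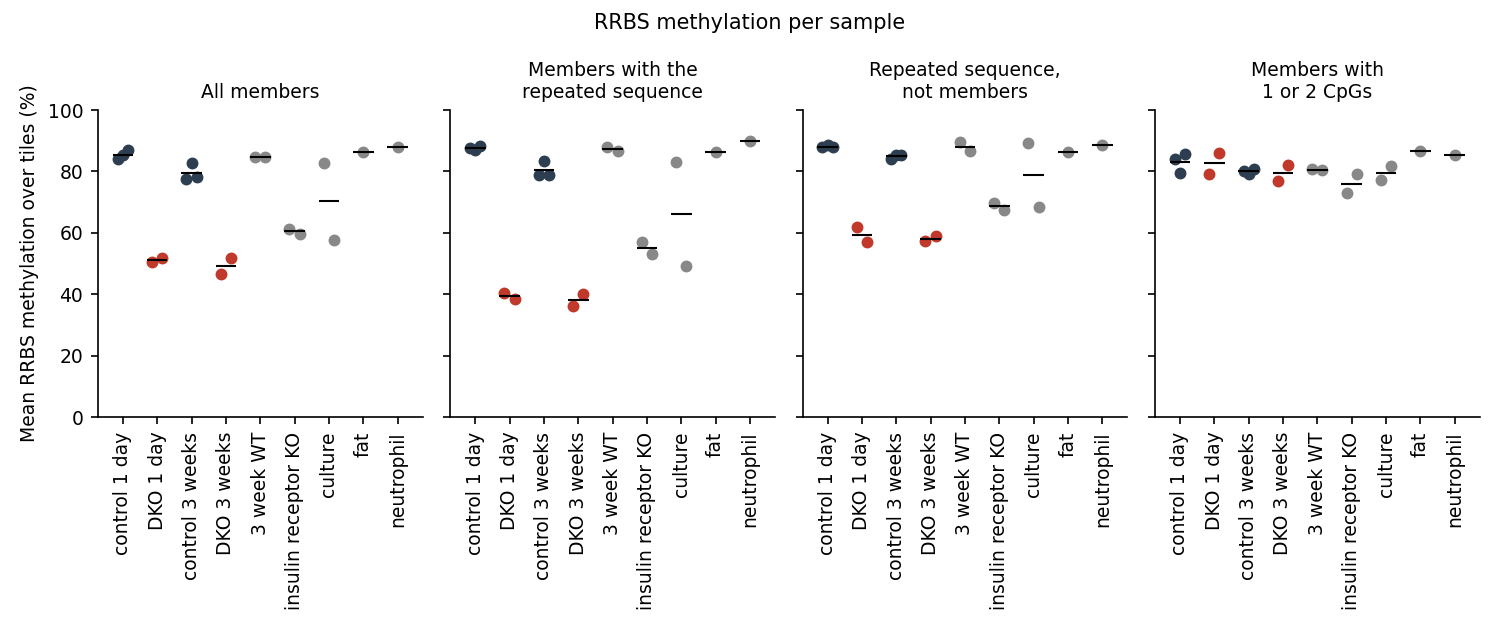
Mean RRBS methylation (%) over tiles in each sample, for all member tiles, members with the CpG-dense repeated sequence, other tiles with that sequence, and members with 1 or 2 CpGs. Each point is 1 mouse, culture or tissue sample and the line is the group mean; DKO mice lie below all injected controls in the first 3 panels and overlap the controls of 1 day in the fourth.

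A test of every RRBS tile was made with limma, and a tile was called at an adjusted p (Benjamini-Hochberg) below 0.05 and a difference of at least 10 points. Of 458474 tiles tested, 735 were called lower in DKO mice injected at 1 day, or 0.160%, and 8041 higher. Of the 90 tested tiles inside members 50 were called lower and 0 higher, and 0 were higher at an unadjusted p below 0.05. At that unadjusted limma p, 10867 of all 458474 tiles were lower and 30111 higher. After injection at 3 weeks 35 of the 90 were called lower, against 0.113% of all tiles, and the same 35 were among those called at 1 day. At 1 day 49 of the 62 tested tiles with the repeated sequence were called, and 1 of the 28 without it. That tile, chr10:117937901-117938000 in a member with 4 CpGs, had differences of -41.3 points at 1 day and -46.6 points at 3 weeks. Among the 20 tested tiles in members with 1 or 2 CpGs limma called 0, and 1 was lower at an unadjusted p below 0.05. Without control mouse 3 of the 1 day group the count fell from 50 to 33.

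Among the 10 members with the largest WGBS falls and enough RRBS values, 8 held the repeated sequence. Of all 70 members with enough RRBS values 41 held it. Several of the 8 are neighbouring tiles of the Camk2b cluster. In the Camk2b intron tile chr11:5907201-5907400 the controls of 1 day had 77.9%, 75.0% and 75.4% and the DKO mice 3.28% and 0.151%. Its controls of 3 weeks had 18.1%, 46.1% and 34.9% and the DKO mice 0.0776% and 1.80%. The DKO mice were low and the groups did not overlap at either time. In the intergenic tile chr18:30427401-30427600 the controls of 1 day had 74.7%, 88.0% and 74.8% and the DKO mice 13.2% and 3.21%. In chr1:184188001-184188200, with 21 CpGs, they had 91.7%, 96.8% and 93.8% against 40.1% and 48.7%. The DKO mice were again the lower group in both tiles. By contrast the tile chr2:112345201-112345400 in an intron of Aven, with 2 CpGs, had 33.3% in the DKO WGBS library and 85% in the adult. In RRBS its controls of 1 day had 67.0%, 70.9% and 77.8% and the DKO mice 67.5% and 69.2%, so the groups overlapped.

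The other RRBS samples varied at these members. The WT mice of 3 weeks had 84.7% and 84.8% over all members, fat had 86.2% and neutrophils 87.9%. The insulin receptor knockout mice had 61.4% and 59.7%, over 69 and 75 RRBS tiles of which 56 and 57 held the repeated sequence. In the controls of 1 day 62 of 108, 61 of 94 and 64 of 106 did, so the tiles compared are not the same. The 2 hepatocyte cultures had 82.8% and 57.7%. Over all RRBS tiles in measured WGBS tiles the insulin receptor knockout mice had 57.1% and 58.0% and the cultures 55.6% and 62.0%. In members with the repeated sequence the insulin receptor knockout mice had 57.1% and 53.1% and the cultures 82.9% and 49.1%. In members without it the controls of 1 day had 79.0%, 82.1% and 84.8%. The insulin receptor knockout mice had 79.7% and 80.6% there, over 13 and 18 tiles. The cultures had 82.0% and 73.2%, over 14 and 34 tiles. These mice and cultures have no control of their own here, and no test was made.

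The clusters differed in this respect. At the Camk2b cluster the insulin receptor knockout mice had 75.7% and 74.5%, each over 9 of its 16 RRBS tiles, and the controls of 1 day had 64.5%, 81.2% and 84.9% and the DKO mice of 1 day 23.3% and 21.1%. In its tile chr11:5907201-5907400 they had 44.0% and 21.5%, below all controls of 1 day. At the chromosome 18 cluster the insulin receptor knockout mice had 10.9% and 0.479%, near the DKO mice of 1 day at 7.39% and 7.88%, and the controls of 1 day had 69.9%, 71.1% and 78.5%. At the chromosome 4 cluster they had 60.03% and 57.8%, each over 2 RRBS tiles, and the controls 93.6%, 95.4% and 90.3%. The DKO mice of 1 day had 69.8% over 3 tiles and 45.5% over 2. In the tiles with a value in both, the first DKO mouse had 52.4% and 64.6% and the second 41.0% and 50.1%. Culture B was low at the first pair, with 21.8% and 8.09%, and culture A had 63.3% and 60.9%. The controls themselves were lower after injection at 3 weeks, with 47.6%, 58.4% and 36.8% at the Camk2b cluster and 38.4%, 55.1% and 48.0% at the chromosome 18 cluster.

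Peaks of active chromatin were rare at members. Histone marks H3K4me1 and H3K27ac mark enhancers, and a tile counted when it shared at least 1 base with a peak. In WT hepatocytes H3K27ac peaks overlapped 50 members, or 1.02% (95% Wilson interval 0.777% to 1.35%), against 4.43% of all tiles. H3K4me1 overlapped 1.17% (0.902% to 1.51%) against 7.65%. In DKO hepatocytes H3K27ac overlapped 0.962% against 4.86% and H3K4me1 1.15% against 7.78%. In the ATAC-Seq lists of open chromatin in liver, members were overlapped in 0.123% and 0.143% of cases for WT and 0.246% and 0.143% for DKO, against 0.873% to 1.16% of all tiles. The liver factor HNF6 overlapped 0% and 0.0409% of members in its WT lists, against 0.0846% and 0.164% of all tiles. In its DKO lists it overlapped 0% and 0.348% of members, against 0.179% and 0.672%. Of the 109 CpG-dense members 21 lay in WT H3K27ac peaks, or 19.3%, and 22 in DKO H3K27ac peaks, or 20.2%, against 11.4% and 12.7% of all tiles with 5 or more CpGs. Each H3K4me1 list held 1 of them, or 0.917%, against 14.6% and 14.1% of such tiles. No test was made for this subset. Clusters at Camk2b, on chromosome 18 and at Cdk5rap1 each had an H3K27ac peak in both WT and DKO hepatocytes. Each histone list is 1 library, and the WT ones are not labelled as injected. A difference between WT and DKO there has no replicate check and no control labelled as given the virus.

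The 5hmC peaks went the other way. In the 1 library, of hepatocytes of mice 20 days old, they overlapped 702 members, or 14.4% (95% Wilson interval 13.4% to 15.4%), against 9.56% of all tiles. Among tiles with 1 CpG the shares were 14.5% of members and 10.0% of all tiles. CA repeats moved with these peaks, which overlapped 122 of 263 members with such a repeat, 46.4%, and 40.6% of all tiles with one. Without a CA repeat the shares were 12.5% of members (11.6% to 13.5%) and 9.01% of all tiles. None of the 68 members with the repeated sequence overlapped a 5hmC peak. The intervals cover counting error only, and members that lie together are not independent. The chromosome 13 run held 1 peak of 5hmC and 0 of either histone mark, and the chromosome 15 run held 97 of 5hmC and 30 of H3K4me1 in WT.

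**Figure D5:**
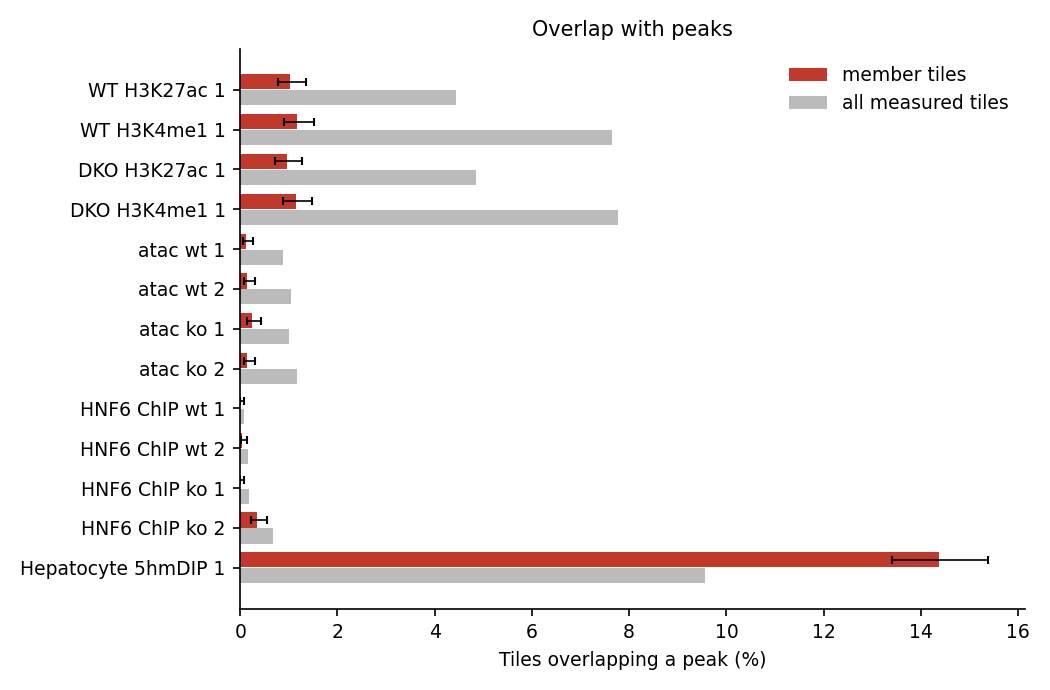
Share of tiles (%) overlapping a peak of each list by at least 1 base, for the 4886 members (red, with 95% Wilson intervals) and all measured tiles (grey). Members are below all tiles in the histone and ATAC lists and above them in the 5hmC list, 14.4% against 9.56%.

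Of 34653 annotated autosomal genes, 1110 held a member, or 3.20%, and 892 of these held 1. The median length was 129 kb for the genes holding a member, 98.0 kb for those with 1 and 5.92 kb for all genes. Camk2b held 12. Lrrc4c and Cntnap2, genes of neuronal adhesion proteins, held 9 each, and the cadherin gene Cdh18 held 8. In Cntnap2 these were 0.164% of its measured tiles and in Gm2093, which held 7, they were 12.1%. By gene family, 14 of 1694 olfactory, vomeronasal and trace amine receptor genes held a member (0.826%). Of the cytochrome P450 genes of families 1 to 4, which act in drug and steroid metabolism, 1 of 99 did, namely Cyp2j11. Of 370 Zfp genes 12 did (3.24%), of 42 Hox genes 1, Hoxd3, and of 25 clustered protocadherin genes 1. Of 14 genes of the DNA methylation machinery 1 did, Dnmt3l, a cofactor of the de novo methyltransferases. Of 30 imprinted genes annotated, 2 did, Sgce and Snrpn.

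Genes that hold a member were called in RNA-Seq about as often as other genes. Of their 1109 symbols 946 are in the FPKM table and 292 passed the filter of a group mean of at least 1 FPKM. Comparing DKO mice and controls injected at 1 day with limma on log2(FPKM + 1), 59 of the 292 were called at an adjusted p below 0.05, or 20.2%, against 20.0% of all 11166 genes tested. Of the 59, 13 were higher and 46 lower in DKO mice, and of all 2228 genes called 483 were higher and 1745 lower. The median log2 fold change was -0.10 for genes holding a member and -0.11 for all. The count of 59 fell to 26 without control mouse 3 and to 29 without DKO mouse 1.

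The 10 such genes with the smallest adjusted p held 1 member each, of which 5 had 1 CpG and none the repeated sequence. Prodh, the first enzyme of proline breakdown, had 73.0, 58.2 and 63.2 FPKM in the controls and 9.34, 9.52 and 8.94 FPKM in the DKO mice. Its log2 fold change was -2.68 (SE 0.17, limma adjusted p = 4.45e-07), and the groups did not overlap. Dgcr6, whose symbol shares the same member tile chr16:18062001-18062200, had a log2 fold change of -1.24 (adjusted p = 1.02e-04 by limma). Tiam2, an activator of Rac, had 8.93, 7.18 and 7.75 FPKM against 1.23, 1.15 and 1.20 FPKM, and Gpc1, a glypican of the cell surface, 5.41, 5.70 and 5.02 FPKM against 0.628, 0.403 and 0.411 FPKM. Rasgrp2, Nsun2 and Arhgap26 were also lower, with log2 fold changes of -1.36, -0.83 and -0.73. Slc35f2, Dynlt1b and Rpp40 were higher, with log2 fold changes of 1.14, 1.16 and 1.43. Slc35f2 passed the filter of 1 FPKM only through the DKO mice of 1 day, at a mean of 1.52 FPKM against 0.144 FPKM in the controls. Its call therefore rests on the group in which it was high. Adding 1 FPKM understates changes of low genes, and with a pseudocount of 0.1 FPKM the log2 fold change was 2.74 for Slc35f2, -3.26 for Gpc1, -2.59 for Rasgrp2 and -1.16 for Arhgap26. Dynlt1b has near-identical copies whose reads may be split, so its value is uncertain.

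Of the 8 tested genes at the named clusters, the repeated sequence and the runs, 2 were called, against 20.0% of all genes. Camk2b had 0.825, 1.51 and 2.84 FPKM in the controls and 1.43, 1.58 and 1.70 FPKM in the DKO mice, with a log2 fold change of -0.02 (limma adjusted p = 0.968). The DKO mice lay within the range of the controls. Cdk5rap1 had 3.97, 2.86 and 2.85 FPKM against 4.53, 6.71 and 4.43 FPKM and rose by a log2 fold change of 0.55 (adjusted p = 0.0300 by limma). Of the 4 genes with a repeated-sequence member that were tested, Snx6, a sorting nexin, was called, with 4.65, 4.09 and 5.07 FPKM against 2.93, 2.94 and 3.02 FPKM and a log2 fold change of -0.50 (limma adjusted p = 0.0195). In the chromosome 15 run Ghr had 151, 140 and 167 FPKM against 131, 120 and 131 FPKM (log2 fold change -0.25, limma adjusted p = 0.277), and neither Fbxo4 nor AW549877 was called. Oxct1, which was not tested because its mean was under 1 FPKM, had 0.169, 0.204 and 0.250 FPKM in the controls and 0.773, 1.06 and 0.616 FPKM in the DKO mice. After injection at 3 weeks it had 0.169, 0.203 and 0.112 FPKM against 0.431 and 0.443 FPKM, so the DKO mice were higher at both times without overlap. Of the chromosome 13 run's 13 annotated genes 2 are in the FPKM table and 0 were tested.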

How the data were processed

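Methylation was measured by WGBS and RRBS, expression by RNA-Seq, and chromatin by peak lists. The authors deposited fractions of methylated CpG readings per tile, after Trim Galore 0.3.3 and alignment to mm9 with BSMAP 2.74, with a minimum coverage of 15 CpGs (WGBS, 200 bp) or 10 (RRBS, 100 bp). Strands were combined, and C-to-T differences from mm9 were left uncorrected, so that such a base reads as unmethylated. Whether the mice carry such differences was not tested. FPKM values were deposited after cutadapt, TopHat2 and Cufflinks, and peaks after HOMER, whose score was used as an alternative filter. The 49 columns not assigned to a sample were not used.

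Fractions were multiplied to percent. CpGs, sequence and genes were read from NCBIM37 with GENCODE annotation. RRBS means per mouse over member tiles were compared by exact permutation. limma 3.58.1 (R 4.3.3) was run over all RRBS tiles with at least 2 mice per group and over all genes on log2(FPKM + 1), with adjusted p below 0.05. The scripts were tested on simulated data. Intervals are 95% Wilson intervals. The members and lists were chosen with earlier results of these data known. The genes and tiles named are the 5 largest clusters (ties broken by the mean fall), the 10 largest falls with RRBS, 3 tiles on each side of the limit, the genes with the most members and the 10 genes with the smallest adjusted p. The runs and the repeated sequence were chosen after their values were seen.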

Additional observations from a re-analysis of the deposited data

Results flagged for a closer look

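The change in DKO mice differed between the injection times for 3 of the 10 named genes that hold a member, by the interaction term of limma over all genes. Prodh had a difference of -2.54 between the log2 fold changes at 1 day and 3 weeks (adjusted p = 1.86e-04), since it had 59.8 and 67.7 FPKM in the DKO mice injected at 3 weeks against 74.7, 62.0 and 74.4 FPKM in their controls. For Gpc1 the difference was -1.81 (limma adjusted p = 0.0251), and for Dgcr6, at the same tile as Prodh, it was -1.56 (limma adjusted p = 0.00389). Over all genes holding a member the difference was called in 18 of 292, or 6.16%, against 5.36% of all genes tested.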

How the results depend on the processing

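The number of members was 38184 with a fall of 25 points, 300 with 50 points and 19357 against the adult library alone. The share with another member within 1 kb was 2.01% at 500 bp, 6.18% at 5 kb, 5.93% with 25 points and 6.33% with 50 points. Promoters held 1.04% of members with protein-coding transcripts alone, 2.48% with a promoter to 1 kb downstream and 2.33% with 50 points. Gene bodies held 27.2% and 27.7% with protein-coding transcripts alone and with 50 points, and intergenic sequence 71.8% with protein-coding transcripts alone.

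With tiles that fell by 50 points, H3K27ac peaks overlapped 3.33% (WT) and 3.67% (DKO), H3K4me1 1.67% and 3.00%, ATAC 1.00% in each list, HNF6 0% in the second WT list and 0.667% in the second DKO list, and 5hmC 11.7%. With the higher-scoring 50% of peaks the shares were 0.737% for WT H3K27ac, 0.614% and 0.573% for H3K4me1, 0.0409% and 0.0614% for the WT ATAC lists, 0.0819% for the first DKO ATAC list, 0.123% for the second DKO HNF6 list and 8.06% for 5hmC. With an overlap of at least 100 bp they were 0.0409% and 0.0614% for ATAC in WT, 0.123% and 0.0409% in DKO, 0.164% for the second DKO HNF6 list and 12.1% for 5hmC.

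The RRBS difference kept its sign in all 44 alternatives, but its size varied. It was -16.7 points at 1 day, -14.9 at 3 weeks and -15.8 over both with a fall of 25 points, -58.0, -37.6 and -47.8 with 50 points, and, chosen after seeing the data, -11.9, -10.5 and -11.2 without the repeated sequence. Leaving out 1 mouse gave -35.0 to -33.4 points at 1 day, -32.7 to -27.7 at 3 weeks and -33.5 to -30.9 over both times. Chosen after seeing the data, members with 1 or 2 CpGs alone gave -0.467 points over both times. The count of RRBS tiles called was 33 to 51, and of genes called 26 to 57, without 1 library. The 10 named genes kept their direction and call in all 80 alternatives. No paired analysis was possible because the columns carry animal numbers, not the replicate numbers of the labels. Unknown coverage per tile limits what single tiles with 1 CpG can show.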

Other observations

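Missing DKO values were also gathered outside the chromosome 13 run. Of the tiles with adult and newborn values, 4.96% and 3.83% lacked a DKO value in a neighbouring pair of 1 Mb windows on chromosome 2, 2.43% in a window of chromosome 4 and 2.22% in a window of chromosome 7. These windows held 4, 4, 2 and 6 members. Over all tiles with adult and newborn values the share without a DKO value was 0.225%.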
